A study of Drosophila melanogaster with 17 samples.

Results

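Drosophila melanogaster answers infection by secreting small antimicrobial peptides, and 7 of the genes that encode them are described here across the tissues of adult flies: the cecropin genes CecA1, CecA2, CecB and CecC, the defensin gene Def, the drosocin gene Dro and the metchnikowin gene Mtk. The genes were taken by symbol from the deposited count tables, each symbol was found once, and together they are 7 of 14095 annotated loci. The libraries were made from poly-A RNA of dissected adult tissue and fall into 8 groups. Fat body was sampled in old flies of 50 days (3 libraries), in Lam-RNAi flies of 5 days (2 libraries) and in young flies of 5 days without treatment (2 libraries). Midgut was sampled in old flies of 50 days, in Lam-RNAi flies of 5 days and in young flies of 5 days (2 libraries each). A separate set of whole guts held old flies of 40 days and young flies of 5 days (2 libraries each). The young groups are called wild type in the description of the design. The labels give no strain, sex or driver line, and they do not say in which tissue the interference against Lam, the gene of the nuclear lamina protein lamin-B, was expressed. Replicates are called biological, but nothing in the labels says whether they came from separate flies, so each p-value measures the spread between these libraries, which may be technical.

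Cecropins are short amphipathic helices that act mainly on Gram-negative bacteria. Defensin is a cysteine-rich peptide that acts mainly on Gram-positive bacteria. Drosocin is a proline-rich, glycosylated peptide against Gram-negative bacteria, and metchnikowin is a proline-rich peptide against fungi. During systemic infection the fat body, the organ of fat storage that corresponds to liver and adipose tissue, makes these peptides in bulk and releases them into the blood. The genes are switched on by NF-kB type factors. Bacterial peptidoglycan reaches Relish (gene Rel) through the receptor PGRP-LC and the adaptor imd, while fungal and Gram-positive signals reach Dif and dorsal (gene dl) through the Toll receptor. In gut epithelium the same peptidoglycan route is held down by dampers such as pirk and the peptidoglycan-cleaving PGRP proteins, and by the homeodomain factor caudal (gene cad).

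The 4 cecropin genes lie together on chromosome arm 3R within 6064 bases, at 26036596-26037009 (CecA1, plus strand), 26037878-26038291 (CecA2, plus strand), 26039057-26039519 (CecB, minus strand) and 26042206-26042659 (CecC, plus strand). Positions are those of the deposited tables with the start counted from 1, and the tables name no genome build. Each cecropin gene has 2 exons in a release 6 annotation and a coding length of 189 bases. The other genes have 1 exon each and lie apart on 2R, Def at 5941683-5942081 on the minus strand, Dro at 10633461-10633821 on the plus strand and Mtk at 11296351-11296620 on the plus strand. Their coding lengths are 276 bases for Def, 192 bases for Dro and 156 bases for Mtk. Def lies wholly inside the span of magu on the opposite strand, and 0 of its 399 bases fall under an exon of magu. The kit used does not mark strand and the way of counting is not given in the sources used here, so reads of the 2 genes cannot be told apart by strand. CecA1 and CecA2 are related copies whose sequences were not compared here, so the split of reads between them may be uncertain.

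Library totals lay between 31637135 and 78289614 counts, and 10383 to 12670 loci had a read. Levels are given as CPM (counts of the gene per 1000000 counts of its library), and 0 reads of a gene leave room for 0.0383 to 0.0948 CPM, the level of 3 counts at these depths, by counting error alone. Lam checks the labels of the interference. It had 15.5 and 16.1 CPM in Lam-RNAi fat body, against 38.4 and 39.0 CPM in young fat body, a log2 fold change of -1.12 (SE 0.14, edgeR quasi-likelihood test with Benjamini-Hochberg adjustment over all genes, adjusted p = 0.00145). In Lam-RNAi midgut it had 32.0 and 30.4 CPM, against 28.9 and 32.1 CPM in young midgut, and the difference of -0.11 did not pass (adjusted p = 0.173). Trypsin and other midgut markers summed to 76.0 to 433 CPM in old fat body, 165 and 221 CPM in Lam-RNAi fat body and 28.0 and 30.5 CPM in young fat body, against at least 48440 CPM in each gut library. Their part in the fat body results was not tested.

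The 2 young midgut libraries stood apart from the other gut libraries, and every comparison with young midgut rests on them. The 7 genes summed to 1032 and 1351 CPM there, against 2.76 and 4.68 CPM in young whole gut, which contains the midgut of flies of the same age. The other gut libraries held between 1.14 and 16.2 CPM. Fat body markers (11 genes, among them yolk and storage proteins) summed to 5289 and 6477 CPM in young midgut and to 1205 to 1410 CPM in old and Lam-RNAi midgut, but they summed to 5449 and 5172 CPM in young whole gut, where the 7 genes were low. Hemocyte markers (12 genes) summed to 691 and 883 CPM in young midgut, against 210 to 366 CPM in the other midgut libraries and 243 to 266 CPM in whole guts. Tracheal markers (4 genes) reached 49.6 and 61.3 CPM in young midgut, against 12.53 to 22.6 CPM in the other gut libraries. Ovary markers (5 genes) summed to 4.95 and 5.74 CPM in young midgut and to at most 1.0 CPM in the other gut libraries, with the chorion gene Cp38 at 0 in young midgut. No marker of the fat body, hemocyte or tracheal lists was at 0 in young midgut. Muscle markers (8 genes) summed to 2794 and 3024 CPM in young midgut and to 989 to 2048 CPM elsewhere in the gut. Midgut markers (16 genes) summed to 84000 and 62650 CPM in young midgut, within the range of the other gut libraries. The part of these other cell types in the midgut results was not tested.

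In fat body the 7 genes were close to silent in young flies and reached 0.498 to 0.618% of all reads in old flies and 0.568 and 0.805% in Lam-RNAi flies. Each of the 7 genes was higher in every old and every Lam-RNAi library than in either young library. The share of all genes that separated in this way is not given here. The 7 genes summed to 4982, 6182 and 5132 CPM in old fat body, 5676 and 8053 CPM in Lam-RNAi fat body, and 14.5 and 18.1 CPM in young fat body. Fat body markers summed to 59680 to 65090 CPM in old fat body, to 140100 and 120500 CPM in Lam-RNAi fat body and to 46840 and 46610 CPM in young fat body, and hemocyte markers to 4802 to 5674, 6718 and 7217, and 4518 and 4439 CPM in the same groups. Muscle markers summed to 2095 to 3644 CPM in old, 3701 and 3542 CPM in Lam-RNAi and 6557 and 6563 CPM in young fat body, and 7 of 8 passed as lower with age. Tracheal markers summed to 157 to 168 CPM in old, 292 and 341 CPM in Lam-RNAi and 341 and 334 CPM in young fat body. Ovary markers summed to 61.8 to 218 CPM in old, 170 and 146 CPM in Lam-RNAi and 59.95 and 60.7 CPM in young fat body, and hindgut markers to 32.6 to 39.1 CPM in old, 23.8 and 24.8 CPM in Lam-RNAi and 19.7 and 20.3 CPM in young fat body. The part of these cell types in the levels of the 7 genes was not tested. In bulk tissue, more cells that make a transcript and more transcript per cell cannot be told apart.

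Among the cecropins, CecA1 had 250.0, 297 and 249 CPM in old fat body, 358 and 551 CPM in Lam-RNAi fat body, and 0.150 and 0.443 CPM in young fat body. CecA2 had 174, 126 and 144 CPM in old fat body, 129 and 128 CPM in Lam-RNAi fat body, and 0.210 and 0.1596 CPM in young fat body. All 5 libraries of the old and Lam-RNAi groups lay more than 100-fold above the young ones for both copies, and the old and Lam-RNAi libraries overlapped in CecA2 but not in CecA1. CecB, the gene on the minus strand, had 73.3, 55.5 and 57.2 CPM in old fat body, 67.6 and 97.0 CPM in Lam-RNAi fat body, and 0.2996 and 0.0887 CPM in young fat body. CecC had 217, 166 and 176 CPM in old fat body, 127 and 181 CPM in Lam-RNAi fat body, and 0.749 and 0.443 CPM in young fat body. CecB was the lowest of the cluster in every old and Lam-RNAi library, and the young levels of the cecropins rest on 15 to 50 reads per gene over both libraries.

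Def had 251, 277 and 226 CPM in old fat body, 475 and 684 CPM in Lam-RNAi fat body, and 1.797 and 0.922 CPM in young fat body. The Lam-RNAi libraries lay above all old libraries. Its neighbour on the other strand, magu, moved the other way, with 69.5, 73.5 and 73.0 CPM in old fat body, 68.0 and 72.5 CPM in Lam-RNAi fat body, and 104 and 106 CPM in young fat body. Dro, the most abundant of the 7, had 2947, 3591 and 2971 CPM in old fat body, 3507 and 4947 CPM in Lam-RNAi fat body, and 6.59 and 11.4 CPM in young fat body. Mtk had 1069, 1669 and 1310 CPM in old fat body, 1013 and 1467 CPM in Lam-RNAi fat body, and 4.73 and 4.59 CPM in young fat body. For Dro and Mtk the old and Lam-RNAi libraries overlapped, and both groups were clear of the young libraries.

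**Figure D1:**
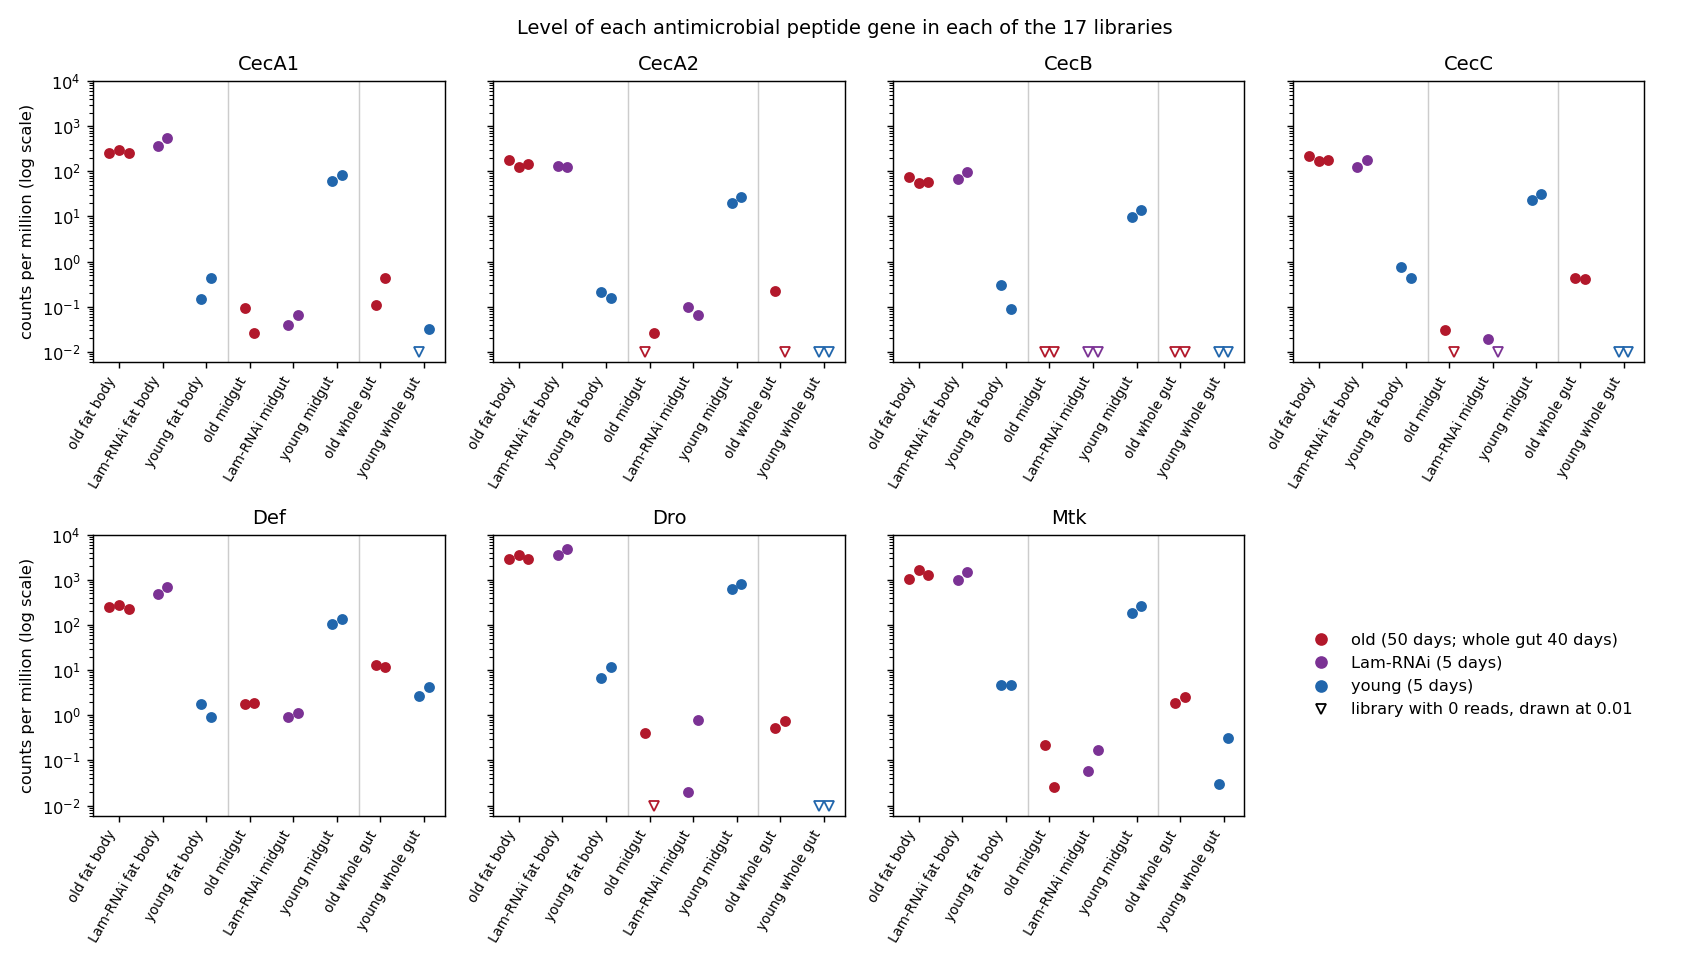
Level in CPM on a log scale for each of the 7 genes in each of the 17 libraries, with 1 point per library, old in red, Lam-RNAi in purple and young in blue, and open triangles for libraries with 0 reads. Old and Lam-RNAi fat body stand above young fat body in every panel, young midgut stands above the other gut groups in every panel, and Def alone keeps at least 0.90 CPM in all libraries.

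The first contrast is the one of age. All 7 genes rose in old fat body, where 19.1% of the 10866 genes tested passed as higher. CecA1, CecA2 and CecB passed the filter on low counts through the old and Lam-RNAi libraries alone, and the other 4 genes also pass it on the young libraries. The log2 fold changes ran between 7.501 (Def) and 9.58 (CecA2), with a median of 8.37, against a median of 0.02 over all genes tested. CecA2 was 766-fold higher in old fat body (log2 fold change 9.58, 95% interval 9.03 to 10.13, adjusted p = 1.15e-05), and Dro was 330-fold higher (8.37, 7.45 to 9.28, adjusted p = 4.04e-05). CecA1 was 763-fold higher (9.58, 8.55 to 10.60), or 10.69 on the log2 scale without young replicate 2. CecB was higher by 8.39 (7.39 to 9.40), or by 9.32 and 7.60 without young replicates 1 and 2. Mtk was 274-fold higher (8.10), CecC 306-fold (8.26) and Def 181-fold (7.501), and leaving out any 1 library moved these by less than 1.5 times.

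The second contrast keeps age at 5 days and asks what accompanies interference with Lam. It shares its young libraries with the contrast of age. Here too, CecA1, CecA2 and CecB passed the filter on low counts through the old and Lam-RNAi libraries alone. All 7 genes rose in Lam-RNAi fat body, where 18.5% of genes passed as higher, and the log2 fold changes ran between 8.23 (Mtk) and 10.61 (CecA1) with a median of 9.03, against -0.01 over all genes tested. CecA1 was 1558-fold higher in Lam-RNAi fat body (10.61, 9.54 to 11.67, adjusted p = 3.42e-05), or 11.71 on the log2 scale without young replicate 2. Def was 498-fold higher (8.96, 8.02 to 9.90, adjusted p = 3.55e-05) and Dro 524-fold (9.03, 8.09 to 9.98, adjusted p = 3.55e-05). CecA2 was 795-fold higher (9.63), CecC 303-fold (8.24) and Mtk 300-fold (8.23). CecB was higher by 9.06, or by 9.99 and 8.26 without young replicates 1 and 2.

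Set against each other, old and Lam-RNAi fat body differed in 2 of the 7 genes. Def was 2.75-fold lower in old than in Lam-RNAi fat body (log2 fold change -1.46, 95% interval -2.04 to -0.88, adjusted p = 0.0121). CecA1 was 2.04-fold lower in old fat body (-1.03, -1.62 to -0.44, adjusted p = 0.0389). Of all genes tested, 9.09% passed as lower. CecB (-0.67, -1.24 to -0.10, adjusted p = 0.11) and Dro (-0.67, -1.27 to -0.07, adjusted p = 0.123) did not pass, and neither did Mtk (-0.13, -0.68 to 0.42), CecA2 (-0.05, -0.36 to 0.25) or CecC (0.02, -0.46 to 0.50). The intervals of CecC and Mtk exclude a difference of 2-fold. Summed, CecA1 and CecA2 were lower in old fat body by -0.751 in log2 fold change (adjusted p = 0.0331). The 2 calls rest on few libraries. A group left with 1 library was taken to vary like the other groups. Def had an adjusted p of 0.0698 without old replicate 3 (-1.38), 0.0538 without Lam-RNAi replicate 1 (-1.65) and 0.122 without Lam-RNAi replicate 2 (-1.19). CecA1 had 0.15 (-0.98), 0.102 (-1.26) and 0.292 (-0.70) without the same libraries, and 0.0547 (-0.78) with scaling by total counts alone. Without old replicate 1, CecB passed as lower (-0.79, adjusted p = 0.0415).

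**Figure D2:**
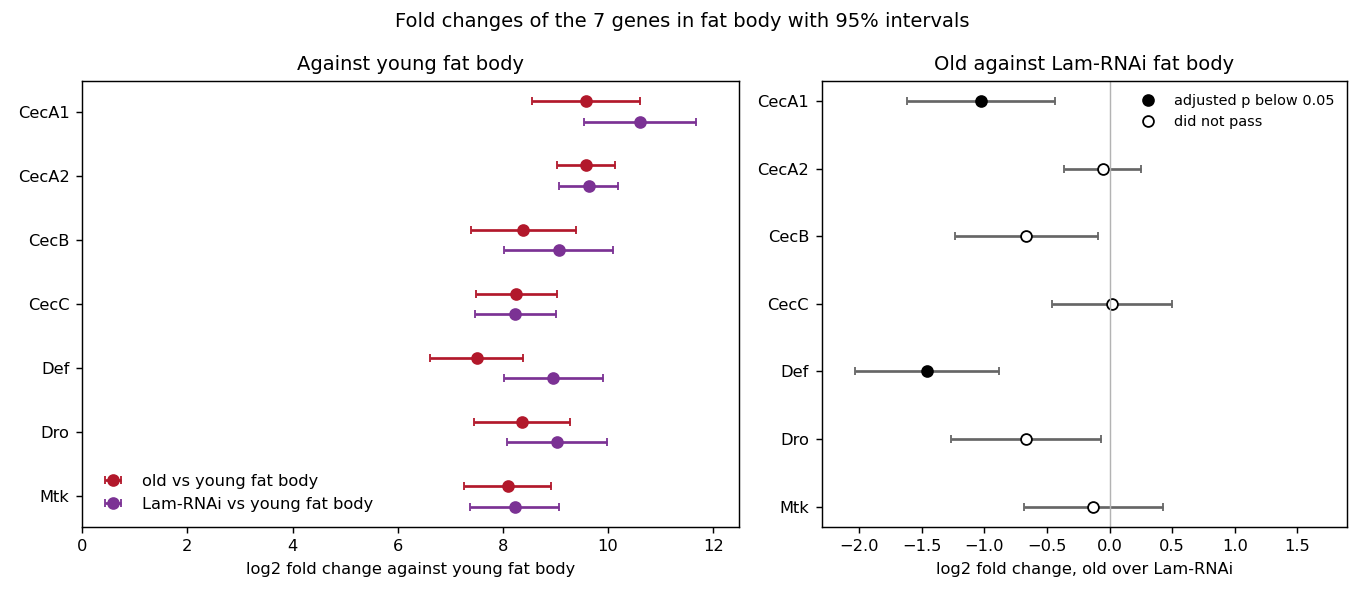
Fitted log2 fold changes with 95% intervals for the 7 genes in fat body, at left old (red) and Lam-RNAi (purple) against the same young libraries, at right old over Lam-RNAi, with filled points for adjusted p below 0.05. Against young fat body all values lie between 7.501 and 10.61, and at right only CecA1 and Def are filled, at -1.03 and -1.46.

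Per kilobase of gene span the genes kept a similar order within old and Lam-RNAi fat body. Dro led with 8781 ± 1011 CPM per kb in old fat body (SD, n = 3) and 11710 ± 2818 CPM per kb in Lam-RNAi fat body (SD, n = 2), followed by Mtk with 4998 ± 1118 and 4592 ± 1188 CPM per kb in the same order of groups. CecA1 (641 ± 67.2 CPM per kb) and Def (630 ± 64.1 CPM per kb) did not differ beyond their spread in old fat body. CecC (410 ± 59.9 CPM per kb) was above CecA2 (357 ± 59.1 CPM per kb) in each of the 3 old libraries, a difference that was not tested. In Lam-RNAi fat body Def (1452 ± 369 CPM per kb) and CecA1 (1097 ± 329.7 CPM per kb) stood clear of CecC (339 ± 83.9) and CecA2 (310 ± 1.63). CecB was last in both, with 134 ± 21.2 CPM per kb in old and 178 ± 44.9 CPM per kb in Lam-RNAi fat body. In young fat body the order began in the same way, with Dro at 25.0 ± 9.496, Mtk at 17.3 ± 0.368 and Def at 3.41 ± 1.55 CPM per kb, and no cecropin exceeded 1.31 CPM per kb on average. Per kilobase of coding sequence CecC (985 ± 144 CPM) came before Def (911 ± 92.6 CPM) in old fat body.

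The make-up of the reads of the 7 genes was led by Dro and Mtk in old and Lam-RNAi fat body, but the shares of Dro, Mtk, Def, CecA1 and CecC did not overlap between these groups. Dro held 57.9 to 59.2% of them in old, 61.4 and 61.8% in Lam-RNAi and 45.4 and 63.2% in young fat body. Mtk held 21.5 to 27.0% in old flies and 17.9 and 18.2% in Lam-RNAi flies. The share of Def was 4.41 to 5.03% in old flies, below the 8.37 and 8.49% of Lam-RNAi flies. CecA1 held 4.81 to 5.02% in old and 6.30 and 6.84% in Lam-RNAi fat body, while CecC held 2.68 to 4.36% in old and 2.24 and 2.24% in Lam-RNAi fat body. Within a library the shares of the 7 genes add up to the whole, so a larger share of some genes forces smaller shares of others. The separations listed are therefore not independent of each other. With so few libraries per group, shares can also separate by chance, and how often other genes do so is not given here. These shares were not tested.

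Next to the cluster, on the side of CecA1, lay genes at other levels. On the other side, no annotated gene lay within 10 kb of CecC. Anp, the andropin gene of the male ejaculatory duct, ends 585 bases before CecA1 on the same strand and never exceeded 0.28 CPM in any library. RpS7, a ribosomal protein gene 1854 bases away, had 1451 ± 29.0 CPM in old fat body, 1142 ± 57.6 CPM in Lam-RNAi fat body and 1403 ± 15.7 CPM in young fat body, and it passed in neither comparison with young (-0.04 with age and -0.12 with Lam-RNAi). Dro lies 1046 bases from AttA and 2907 bases from AttB, attacin genes whose peptides act on Gram-negative bacteria. Of 23 annotated neighbours within 10 kb of the 7 genes, 16 were tested. In old against young fat body 6 passed as higher (AttA, AttB, CG12858, CG34365, CG9743 and snoRNA:Psi18S-1377e) and 3 as lower (CG2249, CG2292 and magu). In Lam-RNAi against young fat body the same 6 passed as higher, and magu and CG12918 passed as lower. Of all 10866 genes tested, 19.1% were higher and 2061 lower with age, and 18.5% were higher and 1860 lower with Lam-RNAi. The gene snoRNA:Psi18S-1377e lies wholly inside RpS7 on the same strand. It had 0.238 to 0.281 CPM in old and 0.0899 and 0.0709 CPM in young fat body, close to the level of 3 counts.

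**Figure D3:**
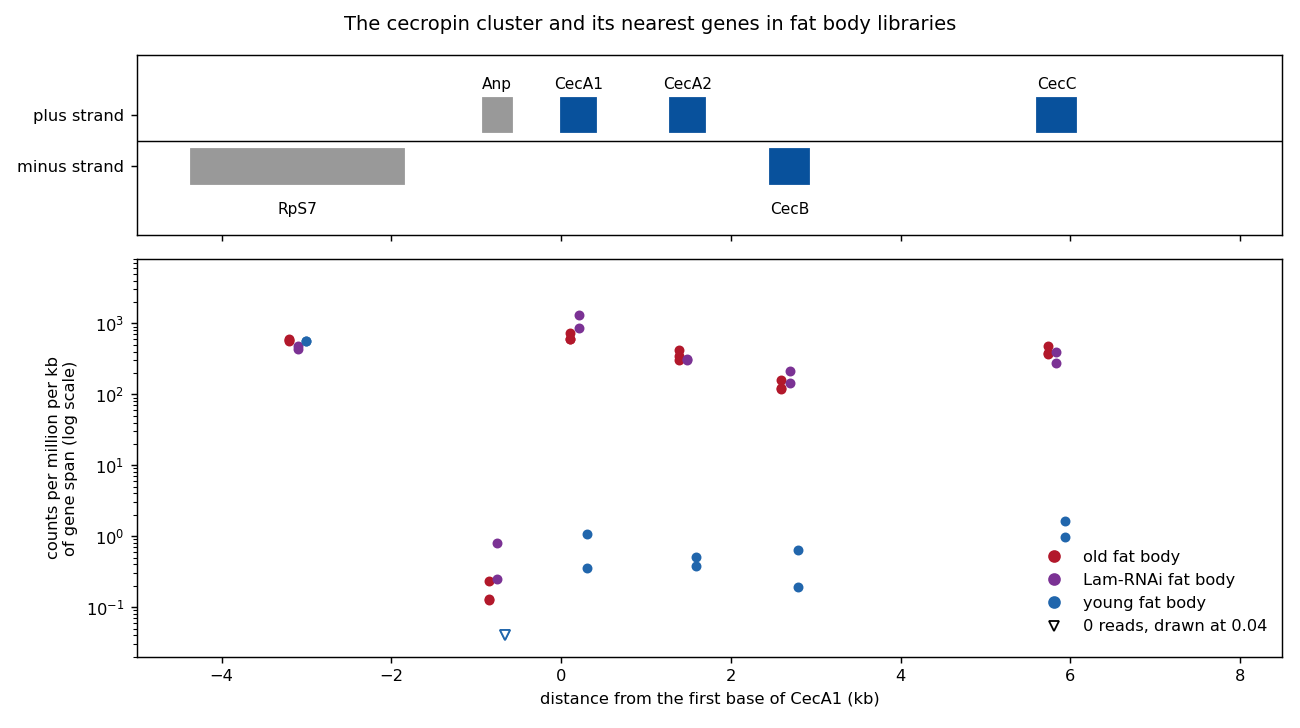
Top, the cecropin genes (blue) and their nearest neighbours (grey) by strand, in kb from the first base of CecA1; bottom, CPM per kb of gene span on a log scale in each fat body library. The cecropins separate the old and Lam-RNAi libraries from the young ones, whereas Anp stays below 1 and RpS7 has similar levels in old and young fat body.

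The other antimicrobial peptide genes moved with the 7 in fat body. Of 14 genes in that list 12 were tested, and 11 rose in old fat body with 1 that did not pass (median log2 fold change 7.67), while 11 rose in Lam-RNAi fat body (7.33) with 1 that did not pass. Their sum was 17330 to 20050 CPM in old fat body, 16090 and 22040 CPM in Lam-RNAi fat body, and 69.6 and 106 CPM in young fat body. AttB averaged 1449 ± 133 CPM in old, 1411 ± 169.6 CPM in Lam-RNAi and 3.21 ± 0.555 CPM in young fat body, a log2 fold change of 8.72 with age (adjusted p = 1.15e-05). Dpt, the diptericin gene that serves as a readout of the peptidoglycan route, was higher by 8.93 with age and by 9.24 with Lam-RNAi, and Drs, the drosomycin gene that serves as a readout of the Toll route, by 7.31 and 7.59. All 14 Bomanin and immune-induced peptide loci, mostly targets of Toll, rose in each comparison with young fat body, with medians of 2.97 and 2.69. IM3 was higher by 3.03 with age and 2.89 with Lam-RNAi, the locus of IM18 and CG10332 by 8.63 and 9.21, and CG5791 by 4.66 and 5.09.

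Genes most like the 7 over the 17 libraries were sought by Pearson correlation with the mean of their scaled log2(CPM + 1) values, among 11121 genes. The 10 highest that carry a gene name were AttB (r = 0.997), AttA (0.996), TepI (0.994), AttD (0.993), Dpt (0.991), Drs (0.989), TotM (0.983), IM23 (0.983), AttC (0.979) and dro4 (0.9751). The libraries fall into a high set, old and Lam-RNAi fat body with young midgut, and a low set, so these values describe membership of the same 2 sets and carry no test. TepI encodes a thioester protein of the blood and TotM a secreted stress peptide. The log2 difference between old and Lam-RNAi fat body was larger in TepI than in any of the 7 genes, with 823 ± 138 CPM in old and 2663 ± 701 CPM in Lam-RNAi fat body (log2 fold change -1.95, adjusted p = 0.00227).

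The signalling genes upstream moved far less than the peptide genes. Of all 10866 genes tested, 2080 (19.1%) were higher and 2061 lower in old than in young fat body. In Lam-RNAi fat body 2015 (18.5%) were higher and 1860 lower. Counts near these shares, here and in the lists that follow, are no result about a list. Of 17 receptor and signalling genes of the peptidoglycan route 8 rose in old fat body with 9 that did not pass (median 0.27), and 6 rose in Lam-RNAi fat body with 11 that did not pass (0.25). Rel, which shares all its positions with Nmdmc and is uncertain for that reason, had 1084, 1093 and 1066 CPM in old fat body, 535 and 667 CPM in Lam-RNAi fat body, and 269 and 264 CPM in young fat body. The 3 groups did not overlap, and Rel was higher by 1.94 with age (adjusted p = 9.36e-05), by 1.35 with Lam-RNAi (adjusted p = 0.000392) and by 0.59 in old over Lam-RNAi fat body (adjusted p = 0.017), the opposite direction to Def and CecA1. The receptor gene PGRP-LC rose by 1.17 and 1.34 with age and with Lam-RNAi, imd by 0.99 and 0.78, PGRP-LA by 1.03 and 0.77, and PGRP-SD, whose positions all lie within CG32373, by 3.86 and 4.39.

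Among 13 dampers of that route 12 were tested, and 6 rose and 1 fell in old fat body (median 0.71), against 6 and 2 in Lam-RNAi fat body (0.79). PGRP-SC2, an amidase gene, averaged 502 ± 122 CPM in old, 391 ± 95.03 CPM in Lam-RNAi and 1.57 ± 0.233 CPM in young fat body. It rose by 8.22 with age, within the range of the 7 peptide genes. With Lam-RNAi it rose by 8.11, just below the lowest of the 7 (Mtk, 8.23). PGRP-SB1 rose by 5.66 and 5.88, pirk by 5.19 and 4.99, and PGRP-LB, which lies wholly across CG17230, by 4.02 and 4.92.

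In the Toll cascade 11 of 13 genes were tested, and 6 rose and 3 fell in old fat body (median 0.67), against 6 and 2 in Lam-RNAi fat body (0.74). The protease gene psh, which starts Toll signalling on microbial proteases, averaged 926 ± 117 CPM in old, 2328 ± 499.7 CPM in Lam-RNAi and 74.2 ± 4.35 CPM in young fat body, and was lower by 1.59 on the log2 scale in old than in Lam-RNAi fat body (adjusted p = 0.00239), the direction of Def and CecA1. PGRP-SA, a Toll recognition gene, rose by 2.12 with age and 1.61 with Lam-RNAi, and modSP, a protease gene upstream of Toll, was lower in both (-1.02 and -0.77). Of 10 intracellular Toll genes 3 rose and 1 fell with age (0.14) and 4 and 2 with Lam-RNAi (0.34). The factor gene dl rose by 1.03 and 0.41, its inhibitor gene cact by 0.95 and 0.53 and the adaptor-binding Pli by 1.15 and 0.92, while Dif did not pass (0.13, adjusted p = 0.563, and 0.44, adjusted p = 0.107).

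Of 11 genes for other factors that act on antimicrobial peptide promoters, 2 rose and 2 fell with age and 3 rose and 1 fell with Lam-RNAi. The GATA factor gene srp, which marks fat body, rose by 0.70 and 1.09, and CrebA by 1.56 and 1.57. The forkhead factor gene foxo fell by 0.44 on the log2 scale with age and did not pass with Lam-RNAi (-0.02, adjusted p = 0.852). The repressor genes cad (-0.14 and 0.15) and nub (2.35 and 0.11) did not pass, and nub had 8.53, 0.397 and 5.15 CPM in old fat body, beside midgut marker sums of 433, 76.0 and 245 CPM in the same libraries.

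In the guts the level depended on the set of libraries. For every gene the order of the 8 groups began with old and Lam-RNAi fat body, followed by young midgut, and no library of young midgut reached the range of the fat body groups above it. Below that, young fat body came next for all but Def. Differences among the lowest groups were often within the spread of the libraries, since many hold 0 to 13 reads of a gene.

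In young midgut CecA1 had 61.6 and 83.8 CPM, CecA2 19.6 and 27.3 CPM, CecB 9.54 and 13.6 CPM and CecC 23.2 and 31.0 CPM. Def had 106 and 133 CPM, Dro 626 and 797 CPM and Mtk 187 and 265 CPM. In old midgut CecA1 had 0.0937 and 0.0256 CPM and CecC 0.0312 and 0 CPM, CecA2 had 0 and 0.0256 CPM, and CecB had 0 reads in both libraries. Mtk had 0.219 and 0.0256 CPM and Dro 0.406 and 0 CPM in old midgut. In Lam-RNAi midgut the cecropins had at most 0.0981 CPM, with CecB again at 0 reads, Dro 0.0196 and 0.781 CPM and Mtk 0.0588 and 0.166 CPM. Def was the exception, with 1.78 and 1.84 CPM in old midgut and 0.902 and 1.10 CPM in Lam-RNAi midgut.

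All 7 genes were lower in old than in young midgut, where 28.7% of the 10220 genes tested passed as lower, and all 7 were lower in Lam-RNAi than in young midgut, where 29.9% did. Both comparisons share the 2 young midgut libraries that stood apart, and through these alone CecA1, CecA2, CecB, CecC and Mtk passed the filter on low counts. Def fell by 6.07 on the log2 scale with age (67.3-fold, 95% interval -6.32 to -5.83, adjusted p = 2.4e-12) and by 7.03 with Lam-RNAi (130-fold, -7.29 to -6.76, adjusted p = 1.12e-12). CecB was at least 427-fold lower in old and at least 431-fold lower in Lam-RNAi midgut than in young midgut, taking 3 counts over each group at 0. CecC rested on 1 read in old and 1 read in Lam-RNAi midgut, with young to old ratios of pooled CPM of 3005 (counting interval 539 to 118700) and young to Lam-RNAi ratios of 3028 (543 to 119600). The fitted change of Dro with age, -12.55, was -18.21 without old midgut replicate 1 and -10.85 without replicate 2, and that of Mtk, -11.42, was -12.95 and -10.08. Between old and Lam-RNAi midgut, 1 of 7 passed as higher, where 17.1% of genes did. No young library is compared there, but the young libraries shared the fit and its filter. Def was 1.94-fold higher in old midgut (0.95, 0.60 to 1.31, adjusted p = 0.000958), and the value lay between 0.82 and 1.11 with 1 library left out.

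In whole gut 4 of the 7 genes were tested and 4 passed as higher in flies of 40 days, where 20.1% of the 9773 genes tested did. CecC, Dro and Mtk entered the test through their old libraries alone. Def had 12.96 and 11.7 CPM in old whole gut, against 2.73 and 4.33 CPM in young whole gut, and was 2.48-fold higher (log2 fold change 1.31, 95% interval 0.85 to 1.77, adjusted p = 0.000206). Mtk had 1.91 and 2.496 CPM in old and 0.0296 and 0.316 CPM in young whole gut (3.18, 1.72 to 4.65, adjusted p = 0.00179), or 2.30 and 5.58 without young replicates 1 and 2. Dro had 0.520 and 0.734 CPM in old whole gut, against 0 reads in both young libraries, and was at least 13.6-fold higher (adjusted p = 0.00398). CecC had 0.438 and 0.411 CPM in old whole gut, against 0 reads in young whole gut, and was at least 9.26-fold higher (adjusted p = 0.012). Without old replicate 2 neither passed, with an adjusted p of 0.0738 for Dro and 0.11 for CecC. The other 3 genes were too low to test. CecA1 had 19 reads in old and 1 in young whole gut, CecA2 had 8 reads, all in 1 old library, and CecB had 0 reads in all 4 whole gut libraries. The rise in whole gut ended at low levels, since the 7 genes summed to 16.2 and 15.8 CPM in old whole gut against 4982 to 6182 CPM in old fat body.

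Def made up most of what the gut held outside young midgut. Of the reads of the 7 genes it took 70.4 and 96.0% in old midgut and 79.3 and 50.4% in midguts of Lam-RNAi flies. In whole gut its share was 80.2 and 74.1% in old and 98.9 and 92.6% in young flies. Dro took at most 35.9% there. In young midgut the make-up was close to that of Lam-RNAi fat body, with Dro at 60.6 and 59.0%, Mtk at 18.1 and 19.6% and Def at 10.2 and 9.83%. Against the mean level in Lam-RNAi fat body, young midgut held between 14.1% (CecB) and 20.6% (Def) of each gene. It held 17.0% of the other antimicrobial peptides and 6.71% of the Bomanins. The marker lists lay on both sides. Ovary markers stood at 3.39%, fat body markers at 4.51%, hemocyte markers at 11.3% and tracheal markers at 17.5%. Hindgut markers stood at 37.3%, Malpighian tubule markers at 53.75% and muscle markers at 80.3%. Against old fat body, young midgut held 14.6% (CecC) to 47.4% (Def) of each gene. What lies behind this likeness was not tested.

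**Figure D4:**
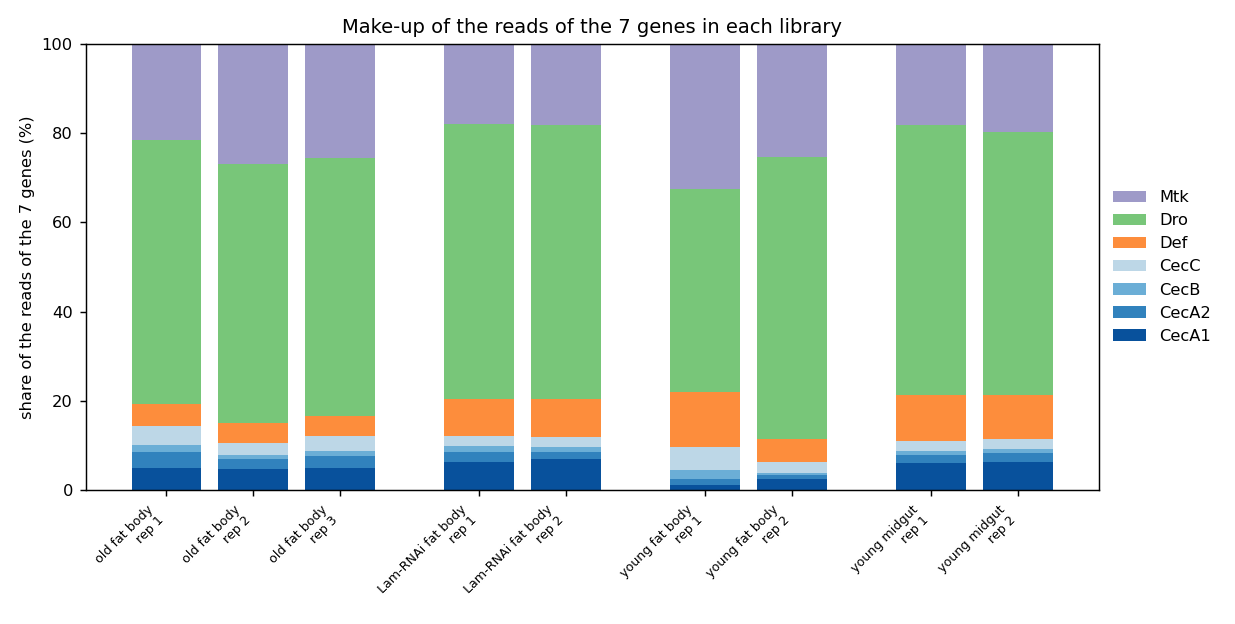
Share of each gene in the summed reads of the 7 genes, in percent, stacked per library for the fat body groups and young midgut. Dro fills 57.9 to 61.8% of the bar in old and Lam-RNAi fat body and 59.0 to 60.6% in young midgut, and Def is wider in Lam-RNAi fat body and young midgut than in old fat body.

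The effect of age differed between fat body and midgut for all 7 genes (interaction in a fit of the 17 libraries), where 23.8% of 11128 genes differed in that direction, and so did the effect of Lam-RNAi, where 24.1% did. For Def the effect of age was higher by 13.55 in fat body than in midgut (12.64 to 14.47, adjusted p = 2.88e-10) and the effect of Lam-RNAi by 15.95 (14.98 to 16.92, adjusted p = 8.36e-11). The effect of age also differed between whole gut and midgut, with 6 of 7 genes higher in the whole gut effect, where 17.6% of genes were, although the old flies were 40 days in the whole gut set and 50 days in the midgut set. Def differed there by 7.404 (6.58 to 8.23, adjusted p = 4.77e-08), and CecB, with 0 reads in whole gut, was the gene that did not pass. CecA2 lost its call without old whole gut replicate 1, the library with all its reads. These 3 differences all involve young midgut. For the fit of all 17 libraries, it was not checked which libraries carried each gene through the filter on low counts. That fit also gave the comparisons between tissues that follow. In the fits within fat body and within midgut, CecA1, CecA2 and CecB passed the filter only through the groups where they were high. CecC and Mtk did so in midgut.

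Between tissues of flies in the same condition, all 7 genes were higher in old fat body than in old midgut, where 34.7% of genes were, and higher in Lam-RNAi fat body than in Lam-RNAi midgut, where 31.9% were. Def was 95.4-fold higher in old fat body (6.58, adjusted p = 2.6e-10) and 505-fold higher in Lam-RNAi fat body (8.98, adjusted p = 5.09e-11). CecB was at least 2297-fold and at least 3151-fold higher in fat body in these 2 conditions. Against young midgut, whose 2 libraries stood apart, the direction was the reverse in young flies. All 7 were lower in fat body than in midgut, where 35.0% of genes were. In young whole gut the 7 genes summed to 2.76 and 4.68 CPM, below the 14.5 and 18.1 CPM of young fat body. Only Def had more in young whole gut, with 2.73 and 4.33 CPM against 1.797 and 0.922 CPM in young fat body. Young fat body and young whole gut were not tested against each other. Mtk fell by 6.05 on the log2 scale in young fat body relative to young midgut (-6.97 to -5.12, adjusted p = 6.57e-08), and Def fell by 6.97 (-7.64 to -6.31, adjusted p = 3.79e-10).

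**Figure D5:**
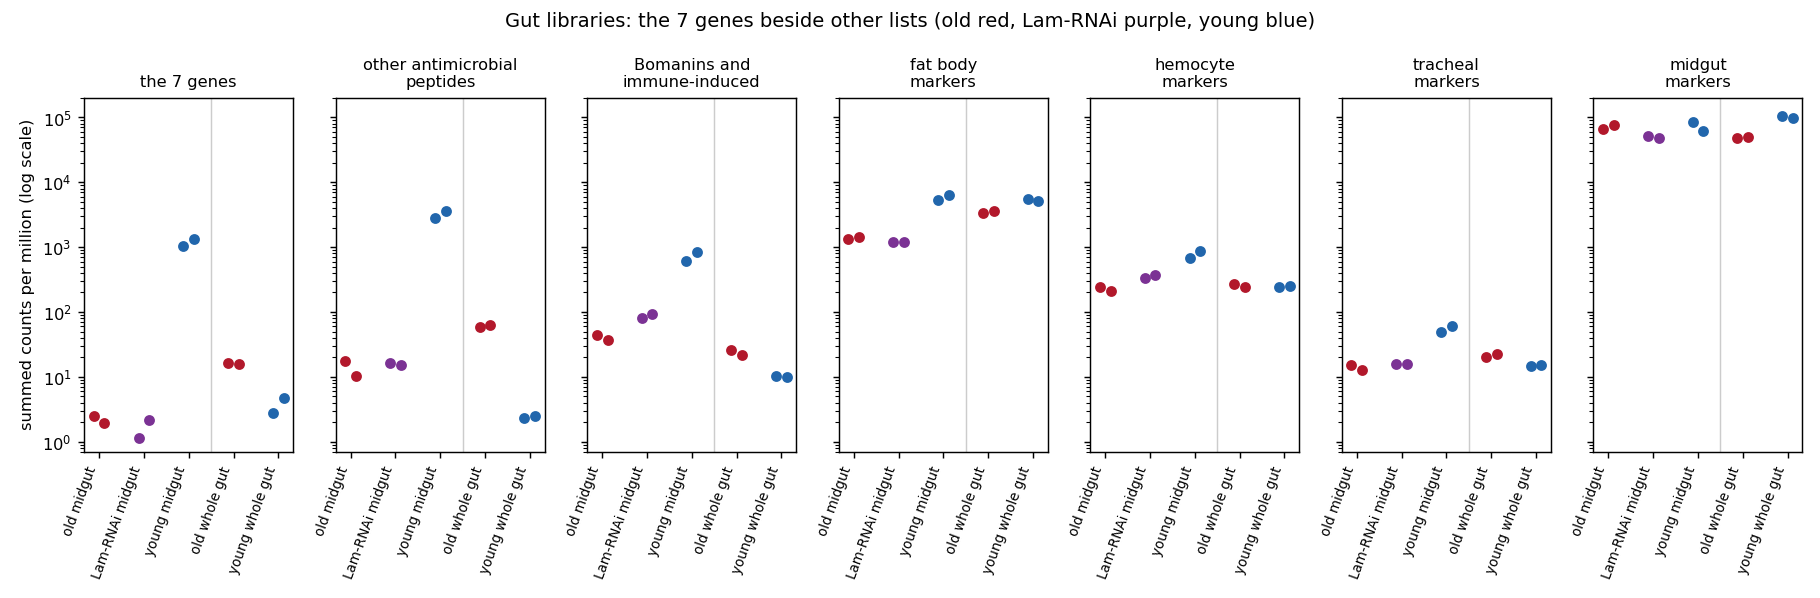
Summed CPM on a log scale in each gut library for the 7 genes and for lists of other genes, with old in red, Lam-RNAi in purple and young in blue. Young midgut is highest for the 7 genes, the other antimicrobial peptides, the Bomanins, the hemocyte markers and the tracheal markers, while its fat body markers lie beside those of young whole gut and its midgut markers lie within the range of the other groups.

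Of 11 other antimicrobial peptide genes tested 10 were lower in old than in young midgut and 10 in Lam-RNAi than in young midgut, and all 14 Bomanin loci were lower in both. The signalling lists were mixed. Of all 10220 genes tested, 2551 were higher and 2936 (28.7%) lower in old than in young midgut. In Lam-RNAi midgut 2603 were higher and 3058 (29.9%) lower. List counts near these shares are no result about a list. Of 17 receptor and signalling genes of the peptidoglycan route 2 were higher and 6 lower in old midgut, and 4 were higher and 6 lower in Lam-RNAi midgut, with PGRP-LA among the higher ones (0.40 and 0.56). Of 13 dampers 2 were higher and 7 lower in old midgut, and 1 was higher and 7 lower in Lam-RNAi midgut. Of 10 intracellular Toll genes 1 was higher and 4 lower in old midgut, and 4 were higher and 1 lower in Lam-RNAi midgut, while of 11 tested Toll cascade genes 11 were lower in old midgut, and 9 were lower and 1 higher in Lam-RNAi midgut. The dampers pirk (-2.78 and -2.69), PGRP-SC2 (-2.36 and -2.03) and PGRP-LB (-0.98 and -1.74) were lower in old and in Lam-RNAi than in young midgut. Rel (-0.75 and -0.24) and the fat body factor gene srp (-1.66 and -1.54) were lower too. In whole gut Rel (0.57), pirk (1.18) and nub (0.86) were higher in old flies while PGRP-SC2 (-0.62) and cad (-0.65) were lower. Scaling by total counts alone moved the median of all whole gut genes by 0.497 on the log2 scale. Of 9 other antimicrobial peptide genes tested there 8 rose, where 20.1% of all genes did. Among them was Dpt with 2.13 ± 0.268 CPM in old and 0.0464 ± 0.0237 CPM in young whole gut (SD, n = 2 each).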

How the data were processed

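Per the labels' protocols, poly-A RNA libraries were built with a TruSeq version 2 kit after PicoPure extraction. The deposited files hold raw counts per annotated gene. Per the submitters' processing notes, CASAVA 1.8 called bases, TopHat2 aligned reads and edgeR came later. The counting tool, strand setting, treatment of reads with several matches and genome build are not given in the sources used here. Of 15080 entries per file, those at 1 position with equal counts were merged to 14095 loci, with 29 positions of unequal counts left apart, and 0 entries had no name. Starts count from 0 in the files and were raised by 1.

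Genes were tested in edgeR 4.0.16 under R 4.3.3 by its quasi-likelihood F test with robust dispersions, after TMM scaling and its default filter on low counts; calls needed a Benjamini-Hochberg adjusted p below 0.05 over all genes tested. Comparisons within a tissue used 1 fit per tissue (10866 fat body, 10220 midgut and 9773 whole gut genes), with 4, 3 and 2 residual degrees of freedom, and comparisons between tissues 1 fit of all 17 libraries (11128 genes). A standard error was taken as the log2 fold change divided by the root of its F. Fold changes are corrected for library composition and can differ from ratios of CPM. Folds against a group with 0 reads were computed against 3 counts over the group. Intervals of ratios of few reads are exact 95% binomial intervals. Coding lengths and exon numbers come from a release 6 annotation. Tables and figures used Python 3.11.15, pandas 2.3.3, numpy 2.4.6, scipy 1.17.1 and matplotlib 3.10.9.

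The 7 genes, the 16 gene lists (162 entries, 8 matched through a synonym, 1 with several matches left out), the tests and the rule for named genes were chosen with earlier results of these data known. Named were the 7 genes, their neighbours within 10 kb that passed in fat body, the 10 most similar genes, 14 regulators and the 3 list members with the smallest p in old against young fat body. Among 54 genes given a value beside the 7, 27 share positions with another locus and are uncertain to that extent. Alternatives were DESeq2 1.42.0 size factors, upper quartile factors or total counts, other count filters, the DESeq2 test, replicate number as a block, only the groups compared, summed cecropins and each library left out. The tests were checked on simulated data.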

Additional observations from a re-analysis of the deposited data

Results flagged for a closer look

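The effect of age differed between fat body and midgut in 7 of the 7 genes by an interaction test in edgeR. In the same fit 23.8% of 11128 genes had an effect of age that was higher in fat body. For Def the effect was higher in fat body by 13.5501 on the log2 scale, with 251, 277 and 226 CPM in old and 1.797 and 0.922 CPM in young fat body, and 1.78 and 1.84 CPM in old and 106 and 133 CPM in young midgut. The effect of Lam-RNAi differed between the same tissues in 7 of the 7 genes, where 24.1% of genes were higher in fat body. The difference was 17.8541 for CecA2 and 15.9537 for Def. The effect of age differed between whole gut and midgut in 6 of the 7 genes, where 17.6% of genes were higher in whole gut. It differed by 7.404 for Def, which was higher in old whole gut and lower in old midgut relative to young flies. All of these rest on the 2 young midgut libraries, and the flies called old were 40 days in whole gut and 50 days in midgut. In the fits within fat body and within midgut, CecA1, CecA2 and CecB passed the filter on low counts only through their high groups. CecC and Mtk passed it that way in midgut.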

How the results depend on the processing

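Of 1381 fold changes of the 7 genes under an alternative, 1340 kept direction and side of the threshold, 15 lost the call, 7 gained one and 19 turned. The 7 rises in each comparison of fat body with young and the 7 falls in each comparison of midgut with young held under every alternative run, where a group left with 1 library was taken to vary like the other groups. The 2 calls of old against Lam-RNAi fat body became 1 by total counts alone, 4 by the DESeq2 test, 1 with all cecropins summed, 0 to 3 with 1 library left out, 1 without old replicates 1 and 3 (chosen after seeing the data; CecA2 at -0.244, adjusted p = 0.0372, with Def and CecA1 lost) and 0 when replicates formed blocks. With the block 66 genes passed there, against 1602 without it, and 1707 against 4141 in old and 2036 against 3875 in Lam-RNAi relative to young fat body. Deviations of libraries with the same number correlated between -0.0949 and -0.0123, except -0.46 between old and Lam-RNAi midgut. No correlation was positive, so no pairing by number was seen. The check left out old fat body replicate 3, and it cannot show whether libraries were handled together in another order. A crossed block between old and Lam-RNAi midgut (chosen after seeing the data) kept the 1 call there. The 4 calls in whole gut became 2 at a minimum of 1 CPM, 7 with all cecropins summed (that call counted for each cecropin) and 2 to 4 with 1 library left out. In old against Lam-RNAi fat body CecA2 turned to 0.208 by total counts and 0.033 without old replicate 2 (lowest -0.175 with 1 library left out). CecC turned to -0.564 with cecropins summed, -0.097 without old replicate 1, -0.166 without Lam-RNAi replicate 1 (highest 0.281) and -0.105 without old replicates 1 and 3. Mtk turned to 0.122 by total counts, 0.022 without old replicate 1, 0.148 without Lam-RNAi replicate 2 (lowest -0.337) and 0.215 without old replicates 1 and 3. In old against Lam-RNAi midgut, at few reads, leaving out 1 library turned CecA1 to 0.813 and 0.3 (lowest -0.881), CecC to -2.191 and -0.828 (highest 2.181), Dro to 2.553 (lowest -7.417) and Mtk to 0.937 and 0.569 (lowest -1.961), while CecC was -0.86 with cecropins summed and Mtk 0.01 by the DESeq2 test. Calls over all genes ran from 1960 to 5198 (old against young fat body), 1824 to 2057 (Lam-RNAi against young, or 6603 with only these groups) and 205 to 3542 (old against Lam-RNAi, or 3154 by total counts, 2566 by DESeq2 and 868 with only these groups) with 1 library left out, 1493 at the lowest in old against Lam-RNAi midgut, and 6933 in whole gut by total counts. Total counts shifted the median of all genes by -0.173, 0.258 and 0.497 in Lam-RNAi against young fat body, old against Lam-RNAi fat body and whole gut, and the share of higher calls in the last 2 was 81.7 and 87.9%, against 38.3 and 46.3%. The cause of these differences was not tested.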
